A study of Mus musculus with 8 samples.

Results

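The nuclear genes for the subunits of the 5 oxidative phosphorylation complexes were examined in RNA-seq counts of 8 mouse induced pluripotent stem cell (iPSC) clones. Members were the genes whose symbol begins with Nduf (without the Ndufaf assembly factors and Ndufa4l2), Uqcr, Cox4 to Cox8 or Atp5, together with Sdha to Sdhd and Cyc1, and no pseudogenes. For each symbol the RefSeq record with the highest mean count was used, and it was kept where 4 or more of the 8 libraries had 5 or more reads. Of 85 such symbols 83 met the rule, within 16235 records that passed the same filter out of 27052 in all. They comprised 37 genes of complex I, 4 of complex II, 9 of complex III, 16 of complex IV and 17 of complex V. Cox6a2 and Cox8b, whose products are known from heart and skeletal muscle, missed the filter, with 0 to 8 reads and 0 to 1 read per library. Ndufa4 was kept with complex I because of its symbol, although its product is also known as a subunit of complex IV. Subunits encoded by mitochondrial DNA were not analysed here.

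The 4 TKO clones (35, 37, 47 and 48) were derived from mouse embryonic fibroblasts without functional Miwi, Mili and Miwi2, the Piwi genes whose official symbols are Piwil1, Piwil2 and Piwil4. The 4 Ctrl clones (33, 34, 41 and 43) came from control fibroblasts, which the study's methods call triple heterozygous and its legends wild type or heterozygous. Fibroblasts of both genotypes were taken from embryos of a mixed C57BL/6 and 129 background with an Oct4-GFP reporter, and were reprogrammed with OCT4, SOX2, KLF4 and c-MYC from retroviruses, so that each sample was the progeny of 1 clone. Both genotypes had 2 clones with numbers in the thirties and 2 with numbers in the forties, called clone series below because the meaning of the numbers is not given in the labels. The p-values measure the spread between clones, whose origin from separate embryos is not stated either.

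Oxidative phosphorylation takes place in the inner mitochondrial membrane. Complexes I and II pass electrons from NADH and succinate to coenzyme Q, complex III passes them on to cytochrome c, and complex IV hands them to oxygen, while complexes I, III and IV pump protons that drive ATP synthesis by complex V. Except for complex II, each complex combines subunits from nuclear and mitochondrial DNA. Pluripotent stem cells are known for a high rate of glycolysis beside a working respiratory chain.

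Total counts ran from 8983203 to 24688324 in Ctrl and from 24593995 to 52457455 in TKO libraries, and the deepest were TKO 35 and TKO 37. Counts were divided by size factors from the median-ratio method and are called normalized counts. Of the targeted genes, Piwil1 had 14.9 ± 9.39 normalized counts in Ctrl clones and 3.13 ± 0.966 in TKO clones, and Piwil2 895 ± 110 and 7670 ± 3009 (mean ± SD, n = 4 each). The study reports Mili (Piwil2) and Miwi2 (Piwil4) transcripts as raised in TKO clones and describes them as truncated and without function. For Piwil2, where the allele lacks exons, a count over a whole record does not show the deletion. The counts were not used to check the labels. Pou5f1, which encodes the pluripotency factor OCT4, had 26087 ± 2102 normalized counts in Ctrl clones and 17075 ± 1535 in TKO clones. It was called lower by edgeR with genotype alone (log2 fold change -0.61 ± 0.095, adjusted p = 0.038) and with clone series in the model (adjusted p = 0.0101). The counts do not separate RNA of the gene itself from RNA of the retroviral OCT4, so a change of the gene itself is not shown. The study lists Oct3/4 among the factors that were not affected, under a fold bound larger than this change. It reports similar Oct4-GFP levels in both genotypes. Of 9 tested pluripotency markers the other 8 had changes above 0, and none of these was called. The summed level of 10 pluripotency markers ran from 123700 to 176330 in Ctrl and from 153277 to 171996 in TKO clones, that of 8 fibroblast markers from 23468 to 60888 and from 20836 to 38558. Picked colonies were grown on inactivated fibroblast feeders, and the study does not state whether feeders were removed before RNA isolation. The part of feeder RNA in these counts was not tested. Of 4 neural markers 2, Pax6 and Nes, were called lower in TKO clones with clone series in the model (3.1% of all records). The sum of the 4 ran from 4897 to 7429 in Ctrl and from 2517 to 8262 in TKO clones. Of the 8 fibroblast markers 2 had genotype changes above 0 (median log2 fold change -0.256). Of 4 tested endoderm markers 0 had changes above 0 (median -0.692). No fibroblast or endoderm marker was called for genotype in either model. Of 5 muscle markers 2 had no read. The part of these markers in the results below was not tested. In bulk RNA, fewer cells of a type and less RNA per cell cannot be told apart.

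In Ctrl clones the genes of complex V led the levels per length. Atp5b, for the catalytic beta subunit, had 31413 normalized counts per 1000 bases of record, Cox4i1 of complex IV had 17169 and Atp5a1, for the alpha subunit, had 15298. Ndufa4 was the highest of the complex I symbols, with 8326 per 1000 bases. At the other end were Ndufs1, with 4.39, and isoforms known mainly from testis or lung, with 9.66 for Cox8c, 22.6 for Cox4i2 and 45.0 for Cox7b2.

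**Figure D1:**
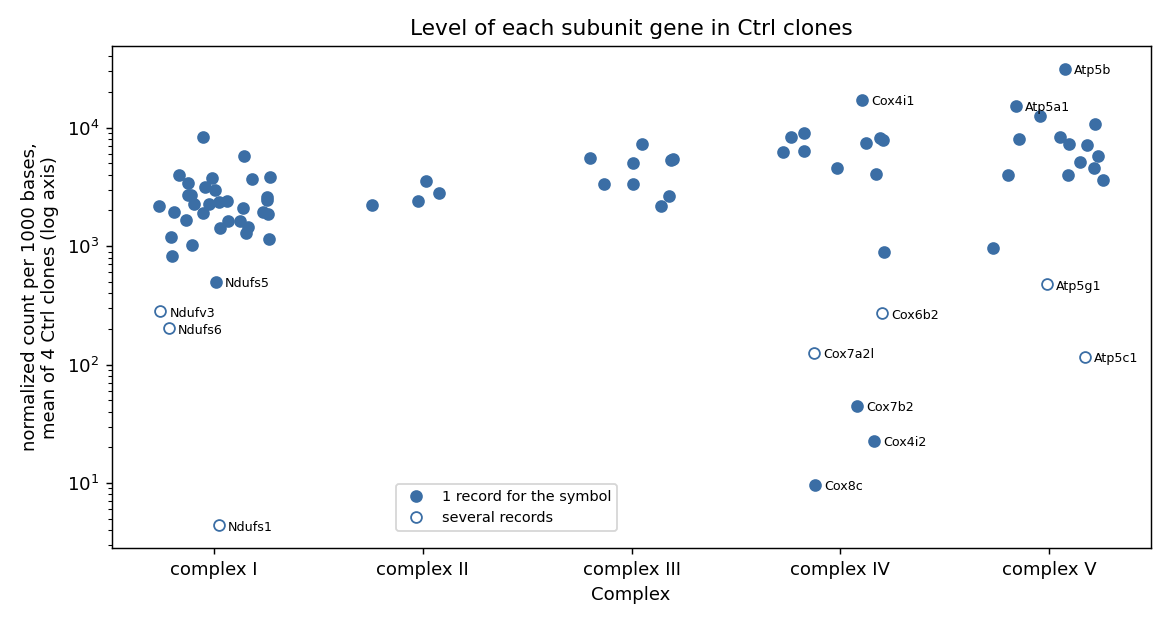
Normalized count per 1000 bases of record in Ctrl clones (mean of 4, log axis) for the 83 genes by complex, with filled points for symbols with 1 record and open points for symbols with several. Atp5b is at the top with 31413, and all 7 open points lie at or below 474.

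The number of records per symbol went with the level. The 7 members whose symbol has several records, Ndufs1, Ndufs6, Ndufv3, Cox6b2, Cox7a2l, Atp5c1 and Atp5g1, had a median of 203 normalized counts per 1000 bases against 3352 for the 76 members with 1 record. Over all symbols the medians were 12.2 for 1965 symbols with several records and 185 for 12297 with 1. Ndufs1, which encodes the largest subunit of complex I, was listed with 4 records of which the highest had 3 to 29 reads per library. Atp5c1, for the gamma subunit that turns inside complex V, had 116 normalized counts per 1000 bases. The treatment of reads with more than 1 matching record is not stated, so levels of these 7 genes, and of genes with near-identical copies elsewhere, are uncertain.

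Members were higher in TKO clones on balance, by a small amount, and no gene passed the test in the comparison of all 4 TKO with all 4 Ctrl clones. The 83 genes took 1.29% ± 0.0263 of all normalized counts in Ctrl clones (range 1.27 to 1.33%) and 1.49% ± 0.0189 in TKO clones (range 1.48 to 1.52%, SD, n = 4 each), with no overlap. The median log2 fold change was 0.21, or 1.16-fold, beside -0.01 over all records, and 77 of the 83 fitted changes were above 0, where the share over all records was 49.5%. Of the members, 78 changed by less than 1.5-fold. With edgeR's quasi-likelihood test and Benjamini-Hochberg adjustment over all records, 0 members were called higher (0.0862% of all records) and 0 lower (0.154%). At an unadjusted p under 0.05, 33 members were higher (7.42% of all records) and 0 lower (7.39%), and DESeq2 called 9 higher (1.89% of the records to which it gave an adjusted p). Limma-voom called 0, with 30 members at an unadjusted p under 0.05. The TKO clones all lay above the Ctrl clones for 28 members (4.1% of all records) and all below for 1 (4.23%), Cox7a2l.

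By complex, the median log2 fold change was 0.38 for complex IV, 0.26 for complex III, 0.21 for complex I, 0.16 for complex V and 0.10 for complex II. Complex IV genes took 0.208% ± 0.00943 of the normalized counts in Ctrl clones and 0.266% ± 0.00250 in TKO clones, and the lowest TKO clone, at 0.262%, was above the highest Ctrl clone, at 0.219%. The shares did not overlap for complexes I, III and V either, at 0.259% and 0.30%, 0.145% and 0.166%, and 0.602% and 0.679% (means of Ctrl and TKO). By mean log2 level per gene the gap was narrow for complexes III and V. The highest Ctrl clone and the lowest TKO clone were at 0.004 and 0.015 for complex III and at -0.018 and 0.002 for complex V. For complex II they overlapped, with 0.0752 to 0.0784% in Ctrl and 0.0747 to 0.0864% in TKO clones.

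**Figure D2:**
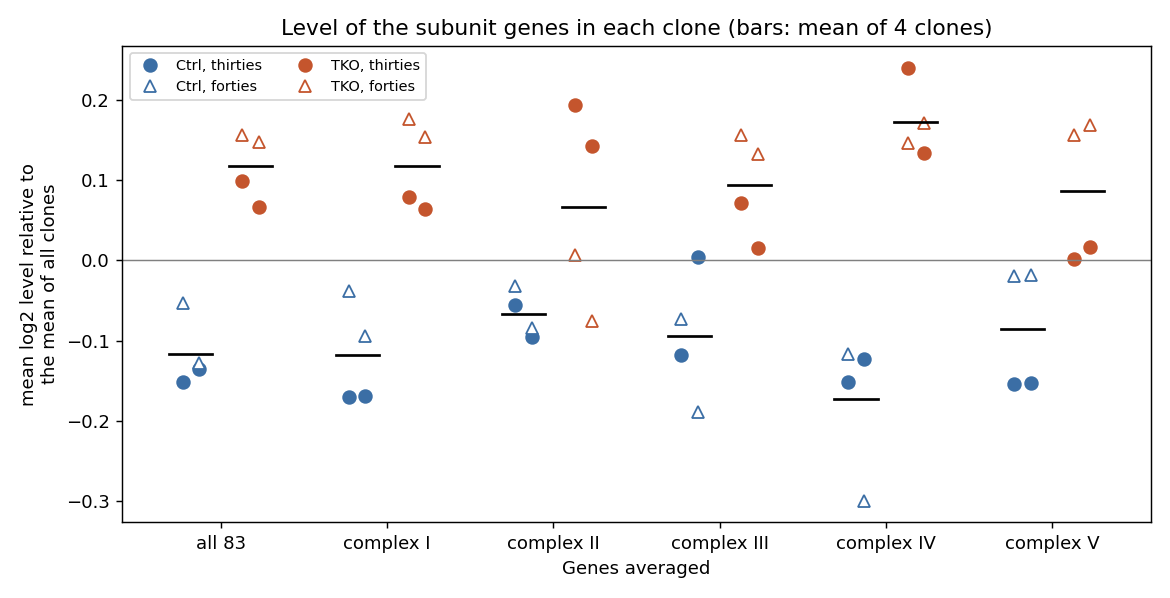
Mean log2 level of the genes of each complex in each clone, relative to the mean of all 8 clones (circles, thirties; triangles, forties; bars, means of 4 clones). For all 83 genes the Ctrl clones lie between -0.152 and -0.053 and the TKO clones between 0.066 and 0.156, while for complex II the TKO clones of the forties, at 0.007 and -0.075, lie beside the Ctrl clones.

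When clone series was added to the model, 12 members were called higher in TKO clones (14.5% of members, beside 2.6% of all records) and 0 lower (3.1% of all records). Among other records of up to 600 bases that averaged 1000 or more normalized counts, 11.5% were called higher, beside 26.3% of members of this length. The 12 called members were 6 of 16 genes of complex IV, 3 of 37 of complex I, 2 of 9 of complex III and 1 of 17 of complex V, and none of the 4 of complex II. Their adjusted p-values lay close to the threshold, from 0.0154 to 0.0498. The count of members called in either direction depended on single clones. Without Ctrl 43, TKO 35 or TKO 37 it was 0, without Ctrl 41 it was 2, without TKO 47 it was 3, and without Ctrl 33, Ctrl 34 or TKO 48 it was 10, 11 and 14. With 1 clone left out, between 33 and 46 members were higher at an unadjusted p under 0.05. DESeq2 called 30 members higher in this model (8.15% of all records with an adjusted p) and 1 lower (9.07%), Cox7a2l. Limma-voom called 15 higher and 0 lower.

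**Figure D3:**
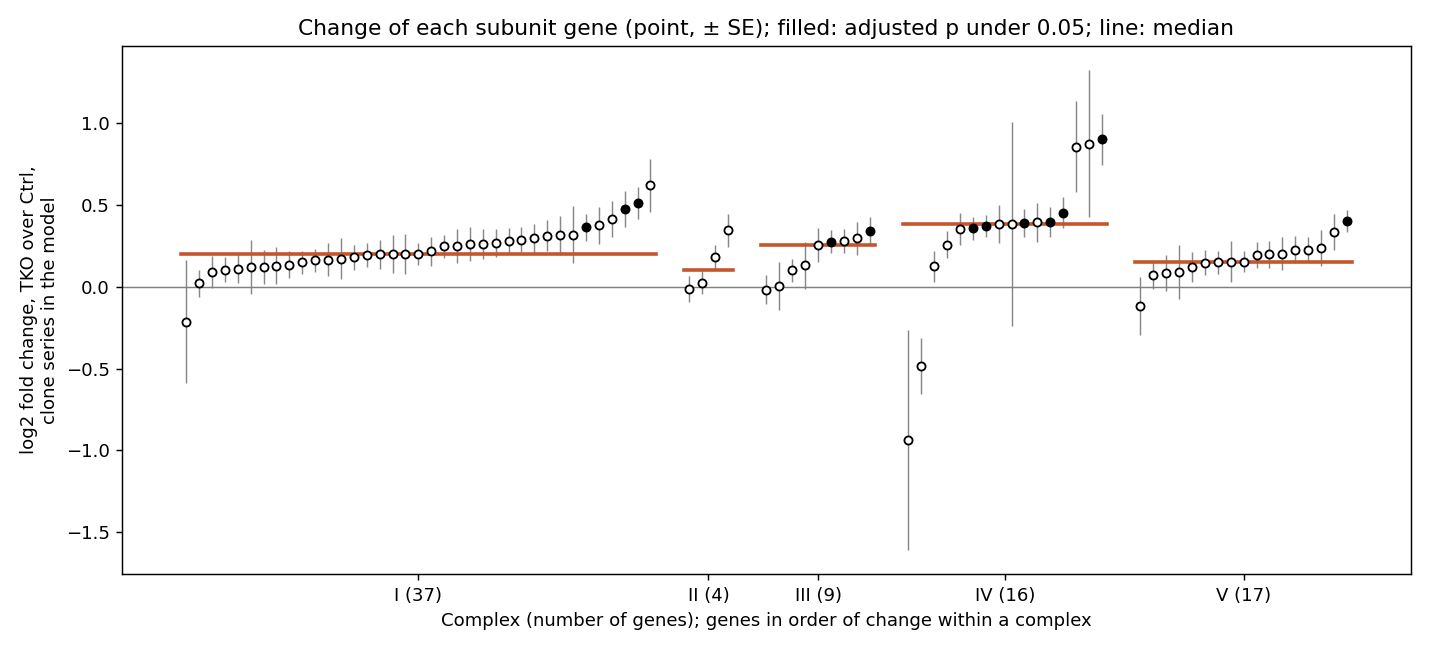
Log2 fold change of TKO over Ctrl with clone series in the model (point, with its standard error) for each gene in order of change within its complex, with filled points for the 12 genes past an adjusted p of 0.05 and a line at each median. Complex IV has the highest line and 6 of the filled points, and 6 of the 83 points lie below 0.

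Length of the record went with the change. Subunit genes are short, with a median record of 657 bases against 2702 over all records, and 59 of the 83 had at most 1000 bases. Among records that were no members, those of up to 600 bases had a median log2 fold change of 0.15 (334 records) and those over 4000 bases one of -0.08 (4207 records). For other records whose mean was 1000 normalized counts or more the medians were 0.23 up to 600 bases, 0.15 from 601 to 1000 and 0.04 from 1001 to 2000, beside 0.26, 0.20 and 0.19 for members of these lengths. Above 0 were 86.9% of these records up to 600 bases and 78.2% from 601 to 1000, beside 97.4% and 95.2% of members. With clone series in the model 11.5% and 5.45% of them were called higher, beside 26.3% and 9.52% of members. After a trend with length had been fitted to the other records and removed from each library, the median over members was 0.09, with 62 of 83 above 0, and it was 0.22 for complex IV, 0.08 for complex I, 0.07 for complex III and 0.02 for complex V. Cox7a1 was then the 1 member called with clone series in the model (2.25% of all records). The part of record length in the other calls was not tested further.

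**Figure D4:**
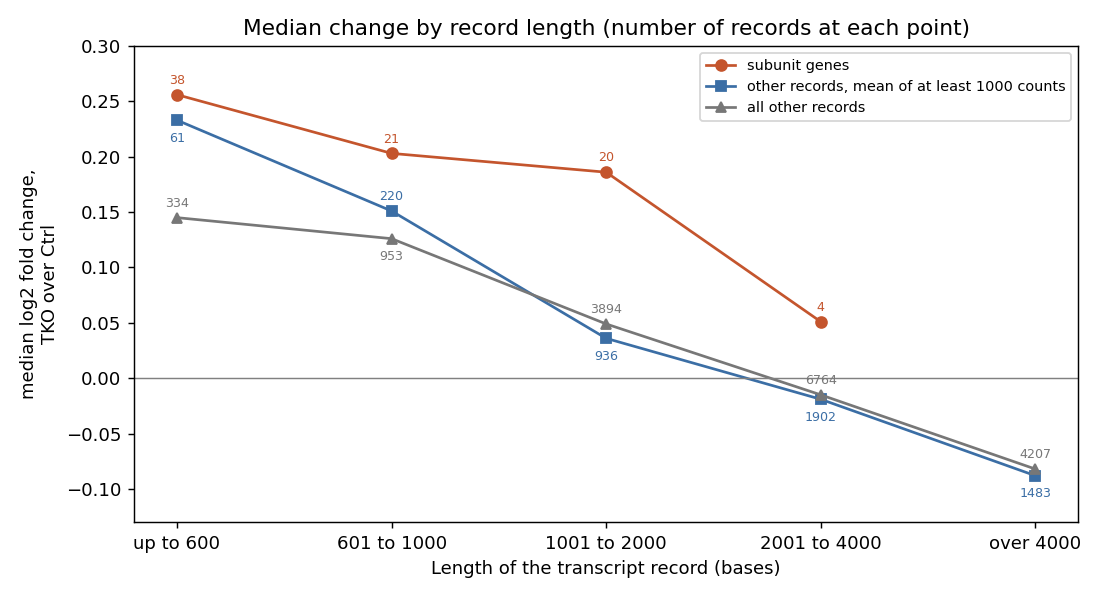
Median log2 fold change of TKO over Ctrl by length of the transcript record for the subunit genes (circles), other records that averaged 1000 or more normalized counts (squares) and all other records (triangles), with the number of records at each point. All 3 lines fall with length, and the circles lie above the squares, at 0.26 and 0.23 up to 600 bases and at 0.19 and 0.04 from 1001 to 2000 bases.

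Complex I, where NADH delivers its electrons, had 36 of 37 changes above 0 and 3 called genes, all for accessory subunits. Ndufa6 had 1268, 1258, 1250 and 1134 normalized counts in Ctrl 33, 34, 41 and 43, and 2104, 1931, 1603 and 1439 in TKO 35, 37, 47 and 48. Every TKO clone was above every Ctrl clone, and the TKO clones of the thirties were the highest. The log2 fold change with clone series in the model was 0.51 ± 0.098 (SE, adjusted p = 0.0228). Ndufa3 had 1219, 1224, 1347 and 1319 normalized counts in Ctrl clones and 1666, 1677, 1561 and 2203 in TKO clones in the same order. The groups did not overlap, and TKO 48 stood above the other TKO clones (log2 fold change 0.48 ± 0.108, adjusted p = 0.0367). Ndufb8 ran from 2233 to 2552 normalized counts in Ctrl clones and from 2728 to 3369 in TKO clones, again without overlap (0.36 ± 0.082, adjusted p = 0.036).

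The core subunits of complex I, which carry the flavin and the iron-sulfur clusters, were not among the called genes (for genes that were not called, changes and edgeR adjusted p-values are from the model of genotype alone). No member passed in that model, so these p-values are not to be set against those given for the called genes. Ndufv1, for the subunit that binds the flavin, had 3753 ± 168 normalized counts in Ctrl clones and 4125 ± 322 in TKO clones, and TKO 48, at 3645, lay within the Ctrl range. Ndufv2, also a core gene, ran from 2787 to 2877 in Ctrl and from 2967 to 3385 in TKO clones, without overlap (0.20 ± 0.082, adjusted p = 0.317). A difference between core and accessory genes was not tested. Ndufs1 had 11.7 ± 5.37 and 10.4 ± 2.49 normalized counts, too few reads for a difference of this size to be detectable. Of the accessory genes that did not pass, Ndufs6 had the largest log2 fold change, 0.62 ± 0.181 (adjusted p = 0.213), at 107 ± 12.9 and 164 ± 16.4 normalized counts, and its groups did not overlap. Ndufb11 had 1942 ± 260 and 2591 ± 246 normalized counts (0.42 ± 0.119, adjusted p = 0.211), and Ndufa4 4097 ± 377 and 4867 ± 337 (0.25 ± 0.097, adjusted p = 0.297). With clone series in the model the edgeR adjusted p was 0.0539 for Ndufs6, 0.0574 for Ndufb11 and 0.0645 for Ndufa4, close to the threshold.

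Complex II, which is also succinate dehydrogenase of the citric acid cycle, had no called gene in either genotype model. Sdha, for the flavoprotein, had 9882, 10046, 10386 and 10338 normalized counts in the Ctrl clones and 11047, 10889, 9169 and 9283 in TKO 35, 37, 47 and 48. The TKO clones of the thirties lay above all Ctrl clones and those of the forties below all of them, so that the log2 fold change was -0.01 ± 0.090, with values of 0.14 within the thirties and -0.17 within the forties. This difference between series did not pass the test over all records, in which 0 members were called for an interaction of genotype and series (1.3% of all records), 0 also by DESeq2 and limma-voom, and 9 were under an unadjusted edgeR p of 0.05. Sdhc, for a membrane anchor, had 2604 ± 116 normalized counts in Ctrl clones and 4063, 3722, 3053 and 2571 in the TKO clones, also with the higher values in the thirties (log2 fold change 0.37 ± 0.139, adjusted p = 0.287). It was called within the thirties (0.54, adjusted p = 0.0182) and not within the forties (0.15, adjusted p = 0.484), and the difference between them did not pass the test of the interaction (adjusted p = 0.224). Sdhb, for the iron-sulfur subunit, had 2618 ± 136 and 2665 ± 107, and Sdhd, for the other anchor, 3641 ± 292 and 4116 ± 110 normalized counts.

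In complex III, the cytochrome bc1 complex, 8 of 9 changes were above 0 and 2 small subunits without a redox group were called. Uqcrb had 2449, 3041, 2632 and 2704 normalized counts in Ctrl clones and 3378, 3664, 3222 and 3449 in TKO clones, without overlap (log2 fold change with clone series 0.34 ± 0.086, adjusted p = 0.0498). Uqcrh, for the hinge protein, had 2814, 2832, 3378 and 3511 in Ctrl and 3334, 3556, 4281 and 3989 in TKO clones. TKO clones overlapped the Ctrl clones as a whole but lay above them within each series (0.28 ± 0.070, adjusted p = 0.0495). The 2 redox subunits did not pass. Cyc1, for cytochrome c1, had 6531 ± 600 and 6992 ± 231 normalized counts (log2 fold change 0.10 ± 0.089), and Uqcrfs1, for the Rieske iron-sulfur protein, 2886 ± 256 and 2855 ± 141 (-0.02 ± 0.094). Of the core proteins, Uqcrc1 had 8314 ± 1015 and 10084 ± 836 normalized counts (0.28 ± 0.108, adjusted p = 0.291) and Uqcrc2 6282 ± 614 and 7727 ± 873 (0.30 ± 0.109, adjusted p = 0.278), the latter without overlap. These 2 p-values are from genotype alone, where Uqcrb had 0.204 and Uqcrh 0.322 (edgeR). With clone series in the model the adjusted p of Uqcrc1 was 0.0518, close to those of Uqcrb and Uqcrh.

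Complex IV, cytochrome c oxidase, held the most called genes. Cox8a, for a small membrane subunit, had 4345, 4351, 4557 and 4427 normalized counts in Ctrl clones and 5700, 5866, 5517 and 5816 in TKO clones. Relative to their means these were the tightest groups among the called genes, 4420 ± 98.6 against 5725 ± 155, and the log2 fold change was 0.37 ± 0.067 (adjusted p = 0.019, and 0.0972 without series in the model, the lowest of all members). Cox5b, a subunit on the matrix side, had 2273, 2171, 2643 and 2417 in Ctrl and 3246, 3187, 3129 and 2883 in TKO clones, without overlap (0.39 ± 0.086, adjusted p = 0.034). Its partner Cox5a had 6419 ± 591 in Ctrl and 8451 ± 601 in TKO clones, with a lowest TKO clone of 7753 and a highest Ctrl clone of 7027 (0.40 ± 0.091, adjusted p = 0.0383). Cox6b1, which joins the monomers on the side of the intermembrane space, had 4169, 3561, 4522 and 4665 in Ctrl and 5307, 5386, 5419 and 7025 in TKO clones. All TKO clones were above all Ctrl clones, and TKO 48 was the highest by a wide gap (0.45 ± 0.095, adjusted p = 0.0304). Ndufa3, which also had its highest value in TKO 48, lies on chromosome 7 like Cox6b1. Cox6c had 3744 to 4572 in Ctrl and 4870 to 5996 normalized counts in TKO clones (0.36 ± 0.069, adjusted p = 0.0248).

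Cox7a1, the isoform of Cox7a known from heart and skeletal muscle, had the largest change of the called genes. It had 298, 484, 320 and 298 normalized counts in Ctrl 33, 34, 41 and 43 and 798, 826, 576 and 474 in TKO 35, 37, 47 and 48. Ctrl 34 stood above the other Ctrl clones and just above TKO 48, so the groups overlapped, while within each series the TKO clones were higher. The log2 fold change with clone series in the model was 0.90 ± 0.158 (adjusted p = 0.0179), and it was called in 15 of 19 settings, the main one included. Per length Cox7a1 made up 15.0, 24.2, 14.2 and 12.6% of Cox7a1 and Cox7a2 together in Ctrl clones and 27.3, 28.9, 20.4 and 17.9% in TKO clones. Cox7a2, the isoform known from most tissues, stayed the larger share in every clone, at 3461 ± 479 and 4117 ± 174 normalized counts (0.25 ± 0.110, adjusted p = 0.331).

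**Figure D5:**
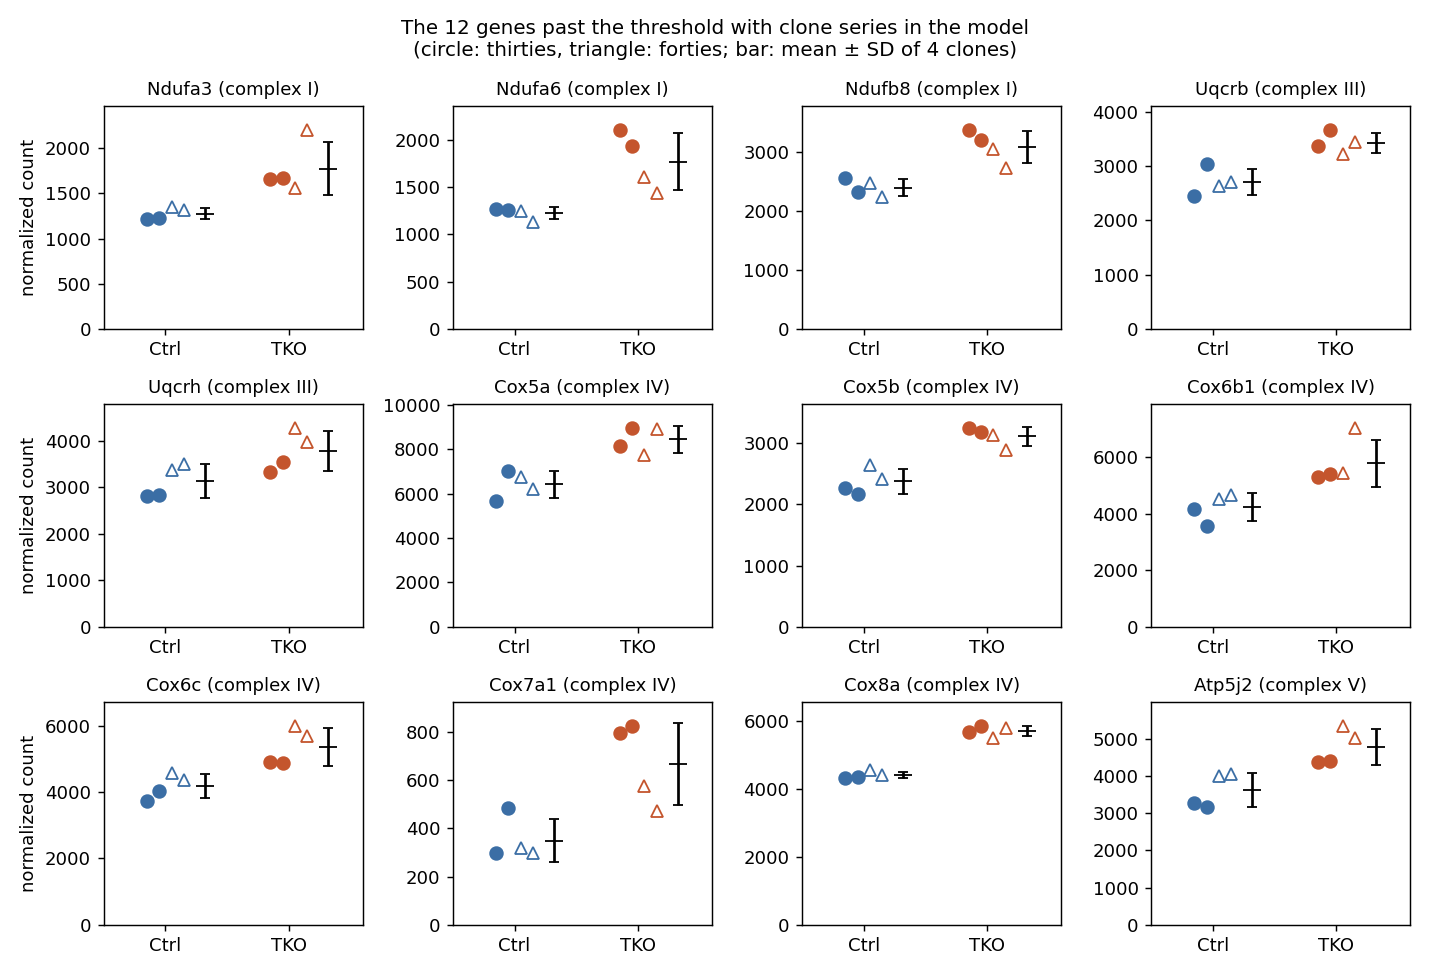
Normalized counts of the 12 genes called with clone series in the model, in each Ctrl and TKO clone (circles, thirties; triangles, forties; bars, mean ± SD of 4 clones). For 10 of the 12 genes all TKO clones lie above all Ctrl clones, and Cox7a1 and Uqcrh overlap.

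Other isoform pairs of complex IV were dominated by 1 member. Cox4i1 made up 99.9% of the Cox4 pair per length in Ctrl clones and 99.8% in TKO clones, and its 11658 ± 1639 and 15432 ± 2334 normalized counts gave a log2 fold change of 0.41 ± 0.135 (adjusted p = 0.25). Cox4i2, known from lung and from the response to low oxygen, had 16.5 ± 7.36 and 33.6 ± 18.9 normalized counts. Cox6b2, known from testis, made up 3.08% ± 0.908 of the Cox6b pair in Ctrl and 4.08% ± 0.915 in TKO clones, counted from the higher of its 2 records. Cox7b had 7389 ± 955 and 9439 ± 309 normalized counts, without overlap (0.35 ± 0.102, adjusted p = 0.212), and Cox6a1 had 3360 ± 539 and 4369 ± 351, also without overlap (0.38 ± 0.127, adjusted p = 0.251). With clone series in the model the edgeR adjusted p was 0.0622 for Cox7b, 0.0784 for Cox6a1 and 0.0765 for Cox4i1. Cox7b2 and Cox8c had 3 to 43 and 1 to 10 reads per library.

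Cox7a2l, whose product ties complexes III and IV together in supercomplexes, was the 1 member with all TKO clones below all Ctrl clones. It had 141, 160, 124 and 126 normalized counts in Ctrl clones and 114, 109, 103 and 70.1 in TKO clones (log2 fold change -0.47 ± 0.212, adjusted p = 0.34). It is one of the 7 symbols with several records.

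In complex V, the ATP synthase, 16 of 17 changes were above 0 and 1 gene was called. Atp5j2, for the f subunit in the membrane, had 3286, 3166, 4018 and 4051 normalized counts in Ctrl clones and 4381, 4398, 5353 and 5032 in TKO clones. The groups did not overlap, and in both genotypes the forties were higher (0.40 ± 0.068, adjusted p = 0.0154). The catalytic genes did not pass. Atp5b had 59025 ± 1962 and 69283 ± 5864 normalized counts, without overlap (0.23 ± 0.083, adjusted p = 0.276), and Atp5a1 had 37373 ± 2176 and 41376 ± 2327 (0.15 ± 0.081, adjusted p = 0.415). With clone series in the model the edgeR adjusted p was 0.109 for Atp5b and 0.262 for Atp5a1. The 3 genes for the same c subunit of the proton-driven ring had shares per length that overlapped between the genotypes. Atp5g3 made up 52.8% ± 3.68 in Ctrl and 52.2% ± 2.68 in TKO clones, Atp5g2 45.2% ± 3.87 and 46.1% ± 3.07, and Atp5g1 2.01% ± 0.200 and 1.77% ± 0.454, and none of the 3 genes passed the test. Atp5g1 has 2 records, with mean counts of 397.5 and 289.5, and its share is from the higher alone, so it is too low.

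Between the clone series, edgeR called 8 members higher in the forties with genotype in the model (9.84% of all records, beside 9.64% of members) and 0 lower (9.56% of all records), so the count was near the background. At an unadjusted p under 0.05, 20 members were higher and 4 lower, DESeq2 called 11 higher and 2 lower, and limma-voom 8 higher and 2 lower. With TMM scaling edgeR called 7 higher and 1 lower, and with the trends of length and mean count removed 3 higher and 4 lower. No share over all records is given here for these alternative counts, so they cannot be set against a background. Of the 8, 4 were genes of complex V, 2 of complex I and 1 each of complexes III and IV. Ndufb2, an accessory gene of complex I, had 463, 402, 527 and 532 normalized counts in the 4 clones of the thirties and 639, 663, 788 and 714 in those of the forties, without overlap (log2 fold change 0.55 ± 0.102, adjusted p = 0.00726). Atp5mpl had 1186, 1277, 1382 and 1536 in the thirties and 1642, 1690, 1851 and 2012 in the forties, also without overlap (0.42 ± 0.081, adjusted p = 0.00833). The others were Ndufa5 (0.47), Atp5k (0.41), Atp5md (0.29), Atp5j2 (0.28), Uqcrh (0.28) and Cox6c (0.23), and the last 3 were also among the 12 genes called by genotype. The count of members called in either direction was 9 without Ctrl 33, 14 without Ctrl 34, 3 without Ctrl 41 and 4 without Ctrl 43. It was 2 without TKO 35, TKO 37 or TKO 47 and 5 without TKO 48.

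Within the thirties 12 members were called higher in TKO clones (4.83% of all records), 8 of them among the 12 called over both series. Within the forties 0 were called higher (0.813% of all records). There 33 members were higher at an unadjusted p under 0.05, DESeq2 called 10 and limma-voom 1, counts for which no share over all records is given here. The median log2 fold change over members was 0.24 to 0.25 in both series, and 65 members were higher in both and 3 lower in both. Each of these comparisons rests on 2 clones a genotype.

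Letters of 3 motifs known for factors that act on nuclear genes of the respiratory chain were counted in RefSeq promoters (GRCm38.p6, 250 bases before to 50 after the start), which were matched for 68 of the 83 members. The NRF1 letters GCGCANGCG were in 29.4% of members beside 7.03% of 27025 symbols with a promoter, the ETS letters CCGGAAG in 25.0% beside 9.93%, and the YY1 letters AAGATGGC in 14.7% beside 3.19%, on either strand. At least 1 of the 3 was in 39 members, with a median log2 fold change of 0.20 beside 0.24 for the 29 without. Complex IV had the lowest share, 3 of 12 genes. The 150 bases before the start are shown for Cox6b1 and Uqcrh, 2 called genes with the ETS letters on the other strand in this stretch, and for Cox7a1, the called gene with the largest change, in which none of the 3 was found. Capitals mark the ETS letters.
Cox6b1: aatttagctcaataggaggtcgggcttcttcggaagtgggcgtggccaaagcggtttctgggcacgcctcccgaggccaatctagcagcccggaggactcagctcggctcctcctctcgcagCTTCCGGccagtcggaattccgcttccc
Uqcrh: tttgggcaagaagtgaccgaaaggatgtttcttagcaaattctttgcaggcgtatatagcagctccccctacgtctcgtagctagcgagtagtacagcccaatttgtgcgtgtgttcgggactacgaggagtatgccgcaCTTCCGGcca
Cox7a1: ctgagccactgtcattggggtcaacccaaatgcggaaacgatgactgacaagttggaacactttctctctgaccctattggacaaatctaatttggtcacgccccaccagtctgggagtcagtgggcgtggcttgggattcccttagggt
The stretches lie at chr7:30626115-30626264 on the minus strand, chr4:116075071-116075220 on the minus strand and chr7:30184021-30184170 on the plus strand. The window of 300 bases held 17 CG pairs for Cox6b1, 15 for Uqcrh and 7 for Cox7a1. A match of letters is a description and says nothing of binding in these clones.

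Other lists of mitochondrial genes are given by their counts, and differences between lists were not tested. Of 47 tested assembly factors, which build the complexes but are not part of them, 26 were above 0 in TKO clones (median 0.01). With clone series in the model 2 of the 47 were called higher, beside 2.6% of all records. They were Cox17, a copper carrier for complex IV (0.47 ± 0.107, adjusted p = 0.0358), and Uqcc2, for complex III (0.52 ± 0.103, adjusted p = 0.0261). Of 16 citric acid cycle genes 12 were above 0 (median 0.07) and 0 were called. Of 14 regulators of mitochondrial biogenesis 5 were above 0 (median -0.12) and 0 were called, with Tfam, for the factor that packs and transcribes mitochondrial DNA, at 3438 ± 234 and 2837 ± 211 normalized counts (-0.28 ± 0.071, adjusted p = 0.0507 with series). Of 17 genes for electron carriers and coenzyme Q, 2 were called higher with clone series in the model (2.6% of all records), Etfb and Coq8b. Cytochrome c (Cycs) had 4795 ± 502 and 4860 ± 565 normalized counts.

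Ribosomal protein genes were counted in the same way. Of 78 genes for mitochondrial ribosomal proteins 47 were above 0 with a median of 0.03, and of 77 for cytosolic ribosomal proteins 72 were above 0 with a median of 0.25, and 1 and 6 of them were called higher with series in the model, beside 2.6% of all records. Summed normalized counts of the cytosolic ribosomal protein genes ran from 2040957 to 2241004 in Ctrl and from 2437462 to 2592417 in TKO clones, without overlap. Of 18 glycolytic genes 17 were above 0, with a median of 0.49. Their sums, from 335232 to 396002 in Ctrl and from 398419 to 519433 in TKO clones, did not overlap either. With series in the model 2 were called (2.6% of all records), Gpi1 (0.75 ± 0.113, adjusted p = 0.0105) and Ldha (0.60 ± 0.093, adjusted p = 0.0114). Ndufa4l2, a relative of Ndufa4 known from cells at low oxygen and no member here, had 55.8 ± 33.0 normalized counts in Ctrl clones and 289 ± 137 in TKO clones (2.35 ± 0.483, adjusted p = 0.0284 with series and 0.127 without).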

How the data were processed

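Libraries from the Illumina TruSeq RNA kit were sequenced single-end at a core facility, and the authors mapped the reads to mouse transcripts with BWA (0.7.5a in the submitters' processing notes). The deposited read counts are whole numbers per RefSeq record and library, unscaled and unfiltered, and the rules for multiple matches and strand are not given in the sources used here. A GRCm38.p6 gene table named 26321 records. Median-ratio size factors were used, and counts were fitted over all 16235 kept records with edgeR 4.0.16 (quasi-likelihood, R 4.3.3), with genotype alone, with genotype and clone series, and with 4 groups of both, at an adjusted p of 0.05. Standard errors are the change divided by the root of F. Named genes were the called members (up to 6 a complex and fit), the 2 with the smallest p and the 2 with most counts in each complex, up to 6 of the members without overlap, core members and isoform sets. A gene that the rule names is not reported here. Clones were grouped by their labels. DESeq2 1.42.0, limma 3.58.1 and 18 alternatives in all were run, and the fits were tested on simulated data. Members and lists were chosen with earlier results of these data known. Thinned to the smallest library total, 10 of the 12 calls with clone series in the model and 5 of the 8 between series remained.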

Additional observations from a re-analysis of the deposited data

Results flagged for a closer look

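In each genotype the 4 clones of 44 named members were searched for a clone far from the other 3, with a gap, as a share of the range, above Dixon's critical value. Of 88 groups 7 met this, and about 1 in 20 would by chance. TKO 48 had 37898 normalized counts of Atp5a1 (42259 to 42712 in the other TKO clones), 3645 of Ndufv1 (4250 to 4326) and 7025 of Cox6b1 (5307 to 5419). Cox6b1 lies on chromosome 7. There TKO 48 was also the highest TKO clone for Ndufa3 (2203, others 1561 to 1677) and Ndufc2 (1897, others 1144 to 1420). The same held for Ndufab1 (1783, others 1244 to 1424) and Uqcrc2 (9000, others 7111 to 7586). For Cox7a1 and Cox6b2, on the same chromosome, TKO 48 was not the highest. Ctrl 34 had 484 of Cox7a1 (298 to 320 in the other Ctrl clones) and 432 of Atp5g1 (360 to 372). Atp5g1 lies on chromosome 11. There Ctrl 34 was also the highest Ctrl clone for Uqcr10 (4140, others 2552 to 3252) and Atp5h (5917, others 4182 to 4681). For Uqcrq it was so by little (1534, others 1037 to 1506). The part of chromosome in these values was not tested. Ctrl 43 had 1134 of Ndufa6 (1250 to 1268), and TKO 47 had 2956 of Ndufb11 (2424 to 2501).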

How the results depend on the processing

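No paired analysis was possible because the genotypes have no clone number in common. DESeq2 called 9 members for genotype, 31 with clone series in the model and 13 between series (11 higher and 2 lower in the forties). With each clone left out in turn, the count with clone series in the model ran from 0 to 14, that between series from 2 to 14, and that for the interaction from 0 to 3, the latter without Ctrl 33. The median of complex III ran from 0.183 (without TKO 47) to 0.267 for genotype and from -0.056 to 0.078 (without Ctrl 34) between series. Alternatives chosen after seeing the data were scaling by library total, thinning to the smallest total, and removal of a trend with length, or with length and mean count. With the length trend removed, 1 member was called with clone series in the model, and the genotype medians were 0.091 over all members, 0.083 for complex I, 0.067 for III, 0.216 for IV and 0.021 for V. With both trends removed, 1 member was called, and these medians were 0.115, 0.115, 0.097, 0.251 and 0.042, with medians between series of 0.013 over all members and -0.11 for complex III. Changes near 0 turned sign. With each clone left out the genotype change ran from -0.056 to 0.035 for Sdha, -0.01 to 0.046 for Sdhb, -0.067 to 0.027 for Uqcrfs1, -0.419 to 0.052 for Ndufs1, -0.269 to 0.034 for Atp5g1 and -0.011 to 0.873 for Cox8c, and TMM scaling gave 0.00018 for Sdha. Removal of the length trend gave -0.048 for Atp5g2, -0.084 for Atp5g3, -0.031 for Ndufa5 and -0.065 for Sdhb, and removal of both trends gave -0.033 for Atp5g2, -0.078 for Atp5g3, 0.025 for Sdha and -0.043 for Sdhb. None of these was called. The cause of these changes was not tested.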
